A study of Mus musculus with 24 samples.

Results

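The 10 transcripts described here were those of the transcription factor NF-kB and of its best known feedback genes and targets. The 10 were taken by name from the 55421 genes of the table, and all 10 passed the filter on low counts that left 13847 genes for testing. They comprised 4 subunit genes (Rela, Relb, Nfkb1 and Nfkb2), 3 feedback genes (Nfkbia, Nfkbiz and Tnfaip3) and 3 target genes (Icam1, Vcam1 and Birc3). RNA came from hepatocytes that were freed by 2-step liver perfusion from 24 C57BL/6J mice, described by the study as male, with no engineered allele in any group. All animals ate normal diet from 4 months of age, with vehicle or drug, until they were 18 months old. Controls then stayed on normal diet with vehicle for a further 9 weeks (ND+veh, n = 8). Over those 9 weeks the other animals ate a diet with 60% of its calories from fat, together with vehicle (HFD+veh, n = 7) or with encapsulated rapamycin at 42 ppm (HFD+eRapa, n = 9). Rapamycin inhibits the kinase mTOR, and in the HFD+eRapa animals it had been given since 4 months of age, so their contrast with HFD+veh covers the whole period of drug and not the diet weeks alone. No library of normal diet with eRapa was analysed here. The labels do not tie a library to a named animal, and p-values measure the spread between these libraries.

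NF-kB proteins are dimers held in the cytoplasm by IkB proteins. Signals from receptors for tumour necrosis factor, interleukin 1 or bacterial products activate the IkB kinases, IkB is degraded, and the dimer enters the nucleus and switches on its targets, among them genes that shut the signal off again. Rela (RelA) and Nfkb1 supply the usual dimer of this canonical route, whereas Relb and Nfkb2 supply that of the slower non-canonical route. Activity is set largely by the location of the proteins, which RNA does not measure. In liver the pathway works in hepatocytes, where it protects against death induced by tumour necrosis factor, and also in Kupffer cells, endothelium and stellate cells.

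Total counts ranged from 17.7 to 25.9 M per library (M, units of 1000000). Levels are given as counts per M (CPM), which compare a gene between libraries but not genes with each other. Tests were edgeR quasi-likelihood tests over all genes tested, and a gene is termed called where its Benjamini-Hochberg adjusted p was under 0.05.

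NF-kB binds short kB sites, and such letters are shown for the members whose promoters could be read, so that a reader can see them beside the RNA values. RefSeq promoter windows (GRCm38.p6, 250 bases before to 50 after a start) matched 6 of the 10 members with 9 windows: Rela, Nfkb2, Nfkbia, Tnfaip3, Icam1 and Birc3. Relb, Nfkb1, Nfkbiz and Vcam1 were not matched. Both strands were searched for the 10-letter kB consensus, found in 4.51% of all 32851 windows, and for the letters GGANNTTCC, found in 4.26%, and a site may hold both. The Nfkbia and Icam1 windows before the start are printed in full 5′ to 3′ with the matches in capitals, from chr12:55492648-55492897 (minus strand) and chr9:21015690-21015939 (plus strand), neither of which overlaps a Gencode exon.
Nfkbia: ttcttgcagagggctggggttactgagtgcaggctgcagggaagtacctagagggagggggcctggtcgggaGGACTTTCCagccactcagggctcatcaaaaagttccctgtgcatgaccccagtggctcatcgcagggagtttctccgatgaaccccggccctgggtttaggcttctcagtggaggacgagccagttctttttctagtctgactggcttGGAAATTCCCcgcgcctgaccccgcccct
Icam1: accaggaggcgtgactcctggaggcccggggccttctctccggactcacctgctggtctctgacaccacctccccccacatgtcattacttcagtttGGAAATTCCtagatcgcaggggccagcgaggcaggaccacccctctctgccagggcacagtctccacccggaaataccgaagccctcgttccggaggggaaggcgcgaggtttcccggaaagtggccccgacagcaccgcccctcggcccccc

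In the Nfkbia window GGACTTTCC lies at positions -178 to -170 from the RefSeq start and GGAAATTCCC, which holds both motifs, at -29 to -20. The Icam1 window holds GGAAATTCC at -153 to -145. For Tnfaip3 the site nearest to the start is shown with both flanks, at -12 to -3 (chr10:19015413-19015422, minus strand, outside Gencode exons). Nfkb2 had 3 windows, and the one whose start is at 46304737 held 3 matches, of which the match on both strands is shown, at -39 to -30 (chr19:46304698-46304707, plus strand, in a Gencode exon). The other matches there overlap it at -38 to -29 or lie nearer to the start, at -11 to -2. The Nfkb2 window whose start is at 46305695 held GGAATGTCCC and GGGACTTTCC. The one whose start is at 46305930 overlaps it and held the same GGGACTTTCC site (chr19:46305705-46305714). The Tnfaip3 window whose start is at 19015410 also held GGGACACCCC and GGAATTTCC, and its window with the start at 19011963 held neither motif.
Tnfaip3: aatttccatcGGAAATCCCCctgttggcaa
Nfkb2: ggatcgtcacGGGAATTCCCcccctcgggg

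The single windows of Rela and Birc3 held neither motif. A match is a stretch of letters and not evidence of binding, and the absence of a match covers these windows only.

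The 10 transcripts separated most clearly between HFD+eRapa and HFD+veh. There 7 of 10 were called, all lower with eRapa, against 32.0% of all genes tested called in either direction and 21.1% called lower. Relb, Nfkb1, Nfkb2, Tnfaip3, Icam1, Vcam1 and Birc3 fell, and their median log2 fold change (log2FC) with the 3 uncalled genes included was -0.94 beside -0.04 over all genes tested. The high-fat diet alone gave 3 calls of 10, 2 higher (Vcam1 and Birc3) and 1 lower (Rela), a share near the 25.9% called over all genes tested, with 16.0% called higher and 9.86% lower. The median of the 10 was 0.21 beside 0.05 over all genes. Between HFD+eRapa and ND+veh, Icam1 and Nfkb2 were called lower, 2 of 10 against 13.5% of all genes called in either direction and 6.54% called lower, with a median of -0.66 beside -0.03. In no contrast did the libraries of both groups fail to overlap for any of the 10 genes, against 2.44%, 2.59% and 3.37% of all genes tested (HFD+veh against ND+veh, HFD+eRapa against HFD+veh and HFD+eRapa against ND+veh). In fits that left out each of the 24 libraries in turn, Nfkb1, Tnfaip3, Icam1, Vcam1 and Birc3 were called lower in HFD+eRapa against HFD+veh each time, as were Rela with diet and Icam1 against ND+veh. The contrasts share libraries, so that a high HFD+veh value enters both contrasts with HFD+veh.

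**Figure D1:**
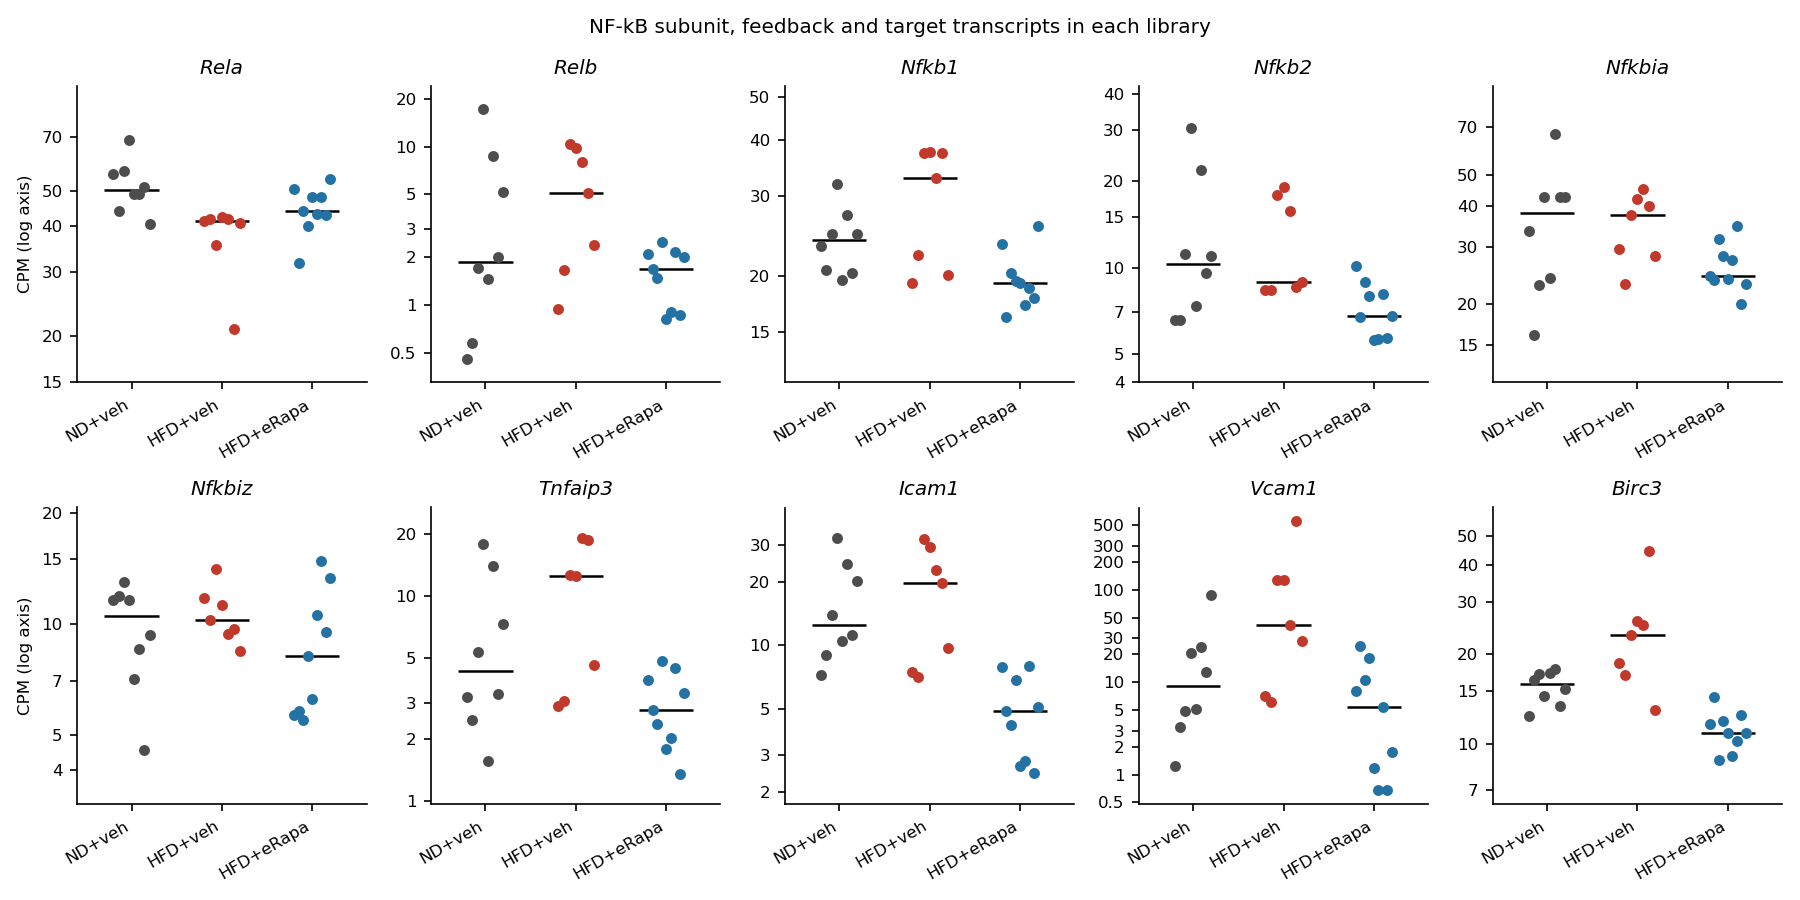
Level of each transcript (CPM, log axis) in the 8 ND+veh, 7 HFD+veh and 9 HFD+eRapa libraries, 1 point per library in order of replicate number, with a black line at the group median. Relb, Tnfaip3, Icam1, Vcam1 and Birc3 spread widely within HFD+veh. The HFD+eRapa points of Birc3 lie between 8.77 and 14.4 CPM, below 6 of the 7 HFD+veh libraries.

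**Figure D2:**
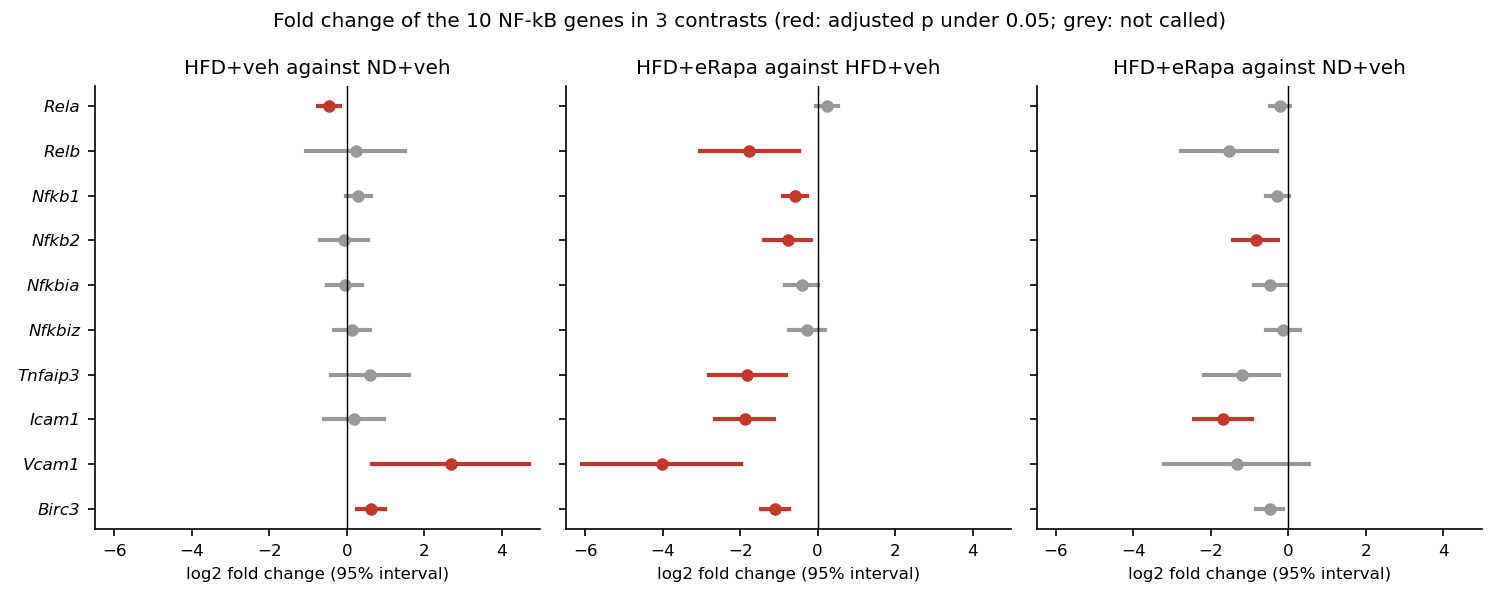
Log2 fold change (point) with its 95% interval (bar) for the 10 genes in each of the 3 contrasts, red where the edgeR adjusted p was under 0.05 and grey otherwise. In the middle panel 7 genes are red and lie left of 0, with Vcam1 farthest at -4.02.

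Per length, Nfkbia and Rela were the most abundant of the 10. In ND+veh the FPKM (fragments per kilobase and per M fragments) was 26.5 ± 10.7 for Nfkbia, 20.1 ± 5.90 for Rela, 7.11 ± 4.60 for Icam1, 6.53 ± 1.79 for Nfkb1 and 6.08 ± 1.26 for Birc3 (SD, n = 8). Lower levels were those of Vcam1 at 5.78 ± 7.82 FPKM, Nfkb2 at 4.21 ± 3.42, Relb at 2.38 ± 3.11, Nfkbiz at 2.14 ± 0.698 and Tnfaip3 at 1.58 ± 1.63 (SD, n = 8). Each gene in this order overlapped its neighbour over the libraries. The spread was unequal as well, since the highest ND+veh library held 70.6 times the FPKM of the lowest for Vcam1 and 29.8 times for Relb, but 1.80 times for Birc3.

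Rela encodes the subunit with the strongest activation domain (GRCm38 chromosome 19, 5637483 to 5648130, plus strand). It had 40.5 CPM in the lowest, 50.1 in the median and 68.9 in the highest ND+veh library. In HFD+veh the lowest was 21.0, the median 41.2 and the highest 42.4 CPM, and in HFD+eRapa they were 31.6, 44.0 and 53.9 CPM. All 7 HFD+veh libraries lay below the ND+veh median, and 2 of them lay below every ND+veh library. Rela fell with the high-fat diet, from 51.9 ± 8.74 CPM (SD, n = 8) to 37.8 ± 7.76 CPM (SD, n = 7), 1.37-fold lower, with a log2FC of -0.46 (SE 0.137, edgeR adjusted p = 0.0191). With 44.7 ± 6.51 CPM (SD, n = 9), HFD+eRapa exceeded HFD+veh by a log2FC of 0.24 (95% interval -0.03 to 0.52, edgeR adjusted p = 0.169), and 7 of its 9 libraries lay above every HFD+veh library. The lowest of all Rela values was that of HFD+veh replicate 6, and without this library the fall with diet was -0.39 (edgeR adjusted p = 0.0207). The call was not reached when the deposited FPKM were tested with limma, at -0.40 (adjusted p = 0.136) and -0.38 (adjusted p = 0.114) with pseudocounts of 0.1 and 1.

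Nfkb1 encodes the partner of RelA, made as a precursor whose tail acts as an IkB (chromosome 3, 135584655 to 135691547, minus strand). Its lowest, median and highest levels were 19.6, 24.04 and 32.0 CPM in ND+veh, 19.3, 33.1 and 37.7 CPM in HFD+veh and 16.2, 19.3 and 25.8 CPM in HFD+eRapa. Within HFD+veh, replicates 3, 4, 5 and 6 had 33.1 to 37.7 CPM and the other 3 libraries 19.3 to 22.2 CPM. Nfkb1 was 1.49-fold lower in HFD+eRapa than HFD+veh, with a log2FC of -0.58 (SE 0.150, edgeR adjusted p = 0.00589), and all 9 libraries lay below the HFD+veh median. Against ND+veh, the log2FC was 0.30 in HFD+veh (95% interval -0.02 to 0.62, edgeR adjusted p = 0.153) and -0.28 in HFD+eRapa (95% interval -0.58 to 0.02, edgeR adjusted p = 0.228).

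The non-canonical subunits Relb (chromosome 7, 19606217 to 19629438, minus strand) and Nfkb2 (chromosome 19, 46304320 to 46312385, plus strand) are themselves NF-kB targets. Relb was scarce, at 0.454, 1.86 and 17.3 CPM in the lowest, median and highest ND+veh library. The same values were 0.939, 5.10 and 10.4 CPM in HFD+veh and 0.820, 1.68 and 2.50 CPM in HFD+eRapa, with 14 to 52 counts per HFD+eRapa library. Relb was called lower in HFD+eRapa than HFD+veh, 3.39-fold, with a log2FC of -1.76 (SE 0.616, edgeR adjusted p = 0.0319). This call was lost without HFD+veh replicate 3, 4, 5 or 6 or HFD+eRapa replicate 5, 6 or 8, with adjusted p between 0.0554 and 0.0889. It was also lost with limma voom, at -1.44 (adjusted p = 0.149), and without the expression filter, at -1.70 (edgeR adjusted p = 0.0695). Diet alone gave Relb a log2FC of 0.23 (95% interval -1.05 to 1.50, edgeR adjusted p = 0.813).

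Nfkb2 had 6.58, 10.3 and 30.5 CPM in the lowest, median and highest ND+veh library, 8.35, 8.94 and 19.1 CPM in HFD+veh and 5.59, 6.80 and 10.2 CPM in HFD+eRapa. The 2 highest of all 24 libraries were ND+veh replicates 4 and 6, at 30.5 and 21.9 CPM. HFD+eRapa was lower than HFD+veh by a log2FC of -0.77 (SE 0.292, edgeR adjusted p = 0.0462), with 7 of 9 libraries below every HFD+veh library, and lower than ND+veh by -0.84 (SE 0.284, edgeR adjusted p = 0.0486). Both calls lay near the threshold. The first was lost in 13 of 24 fits that left out 1 library (ND+veh replicates 3 and 8, HFD+veh replicates 3 to 6, HFD+eRapa replicates 2 and 4 to 9), with adjusted p of 0.0502 to 0.138. The second was lost in 14 (ND+veh replicates 3, 4, 6 and 8, HFD+veh replicates 5 and 7, HFD+eRapa replicates 2 to 9), with adjusted p of 0.0513 to 0.159. Limma voom gave the first -0.70 (adjusted p = 0.137) and the second -0.67 (adjusted p = 0.0865). Without the expression filter they were -0.72 (edgeR adjusted p = 0.0824) and -0.83 (edgeR adjusted p = 0.0885). Nfkb2 shares 531 of its 4584 exon bases with an antisense RNA that starts near its promoter and 299 with Psd on the opposite strand, and whether counting used strand is not given in the sources used here.

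Among the feedback genes, Nfkbia encodes IkB-alpha, the inhibitor that NF-kB induces to end its own response (chromosome 12, 55489410 to 55492647, minus strand). Its promoter window carries the kB letters printed above. Nfkbia had 16.2, 38.1 and 66.7 CPM in the lowest, median and highest ND+veh library, 23.0, 37.5 and 45.2 CPM in HFD+veh and 20.1, 24.5 and 34.8 CPM in HFD+eRapa. All 9 HFD+eRapa libraries lay below the median of HFD+veh and below that of ND+veh. Neither difference was called, at a log2FC of -0.41 against HFD+veh (95% interval -0.85 to 0.02, edgeR adjusted p = 0.139) and -0.47 against ND+veh (95% interval -0.89 to -0.04, edgeR adjusted p = 0.143). Diet alone gave -0.05 (95% interval -0.50 to 0.39, edgeR adjusted p = 0.874).

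Nfkbiz encodes IkB-zeta, a nuclear IkB that helps to switch on secondary response genes (chromosome 16, 55811375 to 55838899, minus strand). Group medians were 10.5 CPM in ND+veh, 10.2 in HFD+veh and 8.18 in HFD+eRapa, and the HFD+eRapa libraries spread from 5.49 to 14.8 CPM. None of its contrasts was called by edgeR or DESeq2, nor did any reach an unadjusted p under 0.05 in edgeR. The log2FC was 0.14 with diet (95% interval -0.33 to 0.61), -0.27 for HFD+eRapa against HFD+veh (95% interval -0.73 to 0.19) and -0.14 against ND+veh (95% interval -0.58 to 0.31), with edgeR adjusted p of 0.685, 0.365 and 0.759.

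Tnfaip3 encodes a ubiquitin-editing enzyme that dismantles signalling complexes upstream of the IkB kinases (chromosome 10, 19000910 to 19015657, minus strand). It had 1.57, 4.32 and 18.0 CPM in the lowest, median and highest ND+veh library and 2.92, 12.5 and 19.3 CPM in HFD+veh. In HFD+eRapa it had 1.36, 2.79 and 4.81 CPM. HFD+veh replicates 3, 4, 5 and 6 held 12.5 to 19.3 CPM, the other 3 held 2.92 to 4.60 CPM, and ND+veh replicates 4 and 6 held 18.0 and 14.0 CPM. Tnfaip3 fell 3.52-fold from HFD+veh to HFD+eRapa, with a log2FC of -1.81 (SE 0.481, edgeR adjusted p = 0.00677). Against ND+veh the change was 0.61 in HFD+veh (95% interval -0.40 to 1.61, edgeR adjusted p = 0.365) and -1.21 in HFD+eRapa (95% interval -2.17 to -0.25, edgeR adjusted p = 0.0905).

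Of the targets, Icam1 encodes an adhesion molecule that binds integrins of leukocytes and is made by endothelium, macrophages and activated hepatocytes (chromosome 9, 21015985 to 21028817, plus strand). Its lowest, median and highest levels were 7.21, 12.6 and 32.3 CPM in ND+veh, 7.05, 19.8 and 32.2 CPM in HFD+veh and 2.47, 4.86 and 8.02 CPM in HFD+eRapa. Under eRapa 7 of 9 libraries lay below every HFD+veh library and 7 of 9 below every ND+veh library, and Icam1 was called in both contrasts. Icam1 went from 18.3 ± 10.4 CPM in HFD+veh (SD, n = 7) to 4.99 ± 2.19 CPM in HFD+eRapa (SD, n = 9), 3.66-fold lower, a log2FC of -1.87 (SE 0.369, edgeR adjusted p = 0.00103). Against the 16.1 ± 8.77 CPM of ND+veh (SD, n = 8) the log2FC was -1.69 (SE 0.359, edgeR adjusted p = 0.00247). Diet alone gave 0.19 (95% interval -0.58 to 0.95, edgeR adjusted p = 0.739). An antisense RNA on the opposite strand shares 511 of the 4360 exon bases of Icam1.

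Vcam1 encodes the ligand of a leukocyte integrin and is typical of cytokine-activated endothelium and of resident macrophages (chromosome 3, 116109949 to 116129688, minus strand). Within every group the ratio of its highest to its lowest CPM exceeded that of the other genes. Its lowest, median and highest levels were 1.25, 8.99 and 87.2 CPM in ND+veh, 6.17, 41.7 and 557 CPM in HFD+veh and 0.676, 5.34 and 24.6 CPM in HFD+eRapa. The highest library was HFD+veh replicate 6, followed by replicates 4 and 3 at 129 and 127 CPM. Vcam1 was called higher with diet, 6.42-fold, with a log2FC of 2.68 (SE 0.979, edgeR adjusted p = 0.0467), and called lower in HFD+eRapa than HFD+veh, 16.2-fold, with a log2FC of -4.02 (SE 0.992, edgeR adjusted p = 0.00466). Without HFD+veh replicate 6 these were 1.44 (edgeR adjusted p = 0.281) and -2.76 (edgeR adjusted p = 0.0303). The diet call was lost in 13 of 24 fits that left out 1 library (ND+veh replicates 1 to 7, HFD+veh replicates 3, 4 and 6, HFD+eRapa replicates 1, 3 and 7), with adjusted p of 0.0533 to 0.281, with limma voom, at 2.27 (adjusted p = 0.1002), and without the expression filter, at 2.62 (edgeR adjusted p = 0.103). On the FPKM scales with pseudocounts of 0.1 and 1, limma gave the diet change 2.25 (adjusted p = 0.129) and 1.88 (adjusted p = 0.0877), also not called. HFD+eRapa differed from ND+veh by -1.34 (95% interval -3.21 to 0.53, edgeR adjusted p = 0.381). An antisense RNA shares 61 of the 8870 exon bases of Vcam1.

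Birc3 encodes an inhibitor of apoptosis protein, a ubiquitin ligase at the receptor for tumour necrosis factor that favours survival (chromosome 9, 7848699 to 7873186, minus strand). It had 12.4, 15.8 and 17.8 CPM in the lowest, median and highest ND+veh library, 13.0, 23.2 and 44.6 CPM in HFD+veh and 8.77, 10.9 and 14.4 CPM in HFD+eRapa. Here 5 of 7 HFD+veh libraries lay above every ND+veh library and 8 of 9 HFD+eRapa libraries lay below every HFD+veh library. Birc3 rose with diet from 15.5 ± 1.97 CPM (SD, n = 8) to 23.9 ± 10.2 CPM (SD, n = 7), a log2FC of 0.63 (SE 0.178, edgeR adjusted p = 0.0148). It fell to 11.1 ± 1.73 CPM in HFD+eRapa (SD, n = 9), 2.15-fold below HFD+veh, with a log2FC of -1.10 (SE 0.173, edgeR adjusted p = 0.000140), the smallest adjusted p of the 10 genes in any contrast. Without HFD+veh replicate 6 the rise was 0.36 (edgeR adjusted p = 0.0746) and the fall -0.85 (edgeR adjusted p = 0.000219). Against ND+veh, HFD+eRapa had a log2FC of -0.48 (95% interval -0.82 to -0.13, edgeR adjusted p = 0.0609), with 7 of 9 libraries below every ND+veh library, and this difference was called without HFD+veh replicate 6, at -0.49 (edgeR adjusted p = 0.00883). The diet call of Birc3 was not reached with limma on the deposited FPKM, at 0.55 (adjusted p = 0.154) and 0.50 (adjusted p = 0.127) with pseudocounts of 0.1 and 1.

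The same libraries carried the high values of several members. In HFD+veh, replicates 3, 4, 5 and 6 were the 4 highest libraries for 7 of the 10 genes (Relb, Nfkb1, Nfkbia, Tnfaip3, Icam1, Vcam1 and Birc3). In ND+veh, replicates 4 and 6 were the 2 highest for 6 genes (Relb, Nfkb1, Nfkb2, Nfkbia, Tnfaip3 and Icam1). For Nfkbia this was a near tie, with 42.8 CPM in replicate 4 and 42.6 CPM in each of replicates 7 and 8. Rela, Nfkb2 and Nfkbiz did not share the first pattern, and Rela was lowest in HFD+veh replicate 6.

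**Figure D3:**
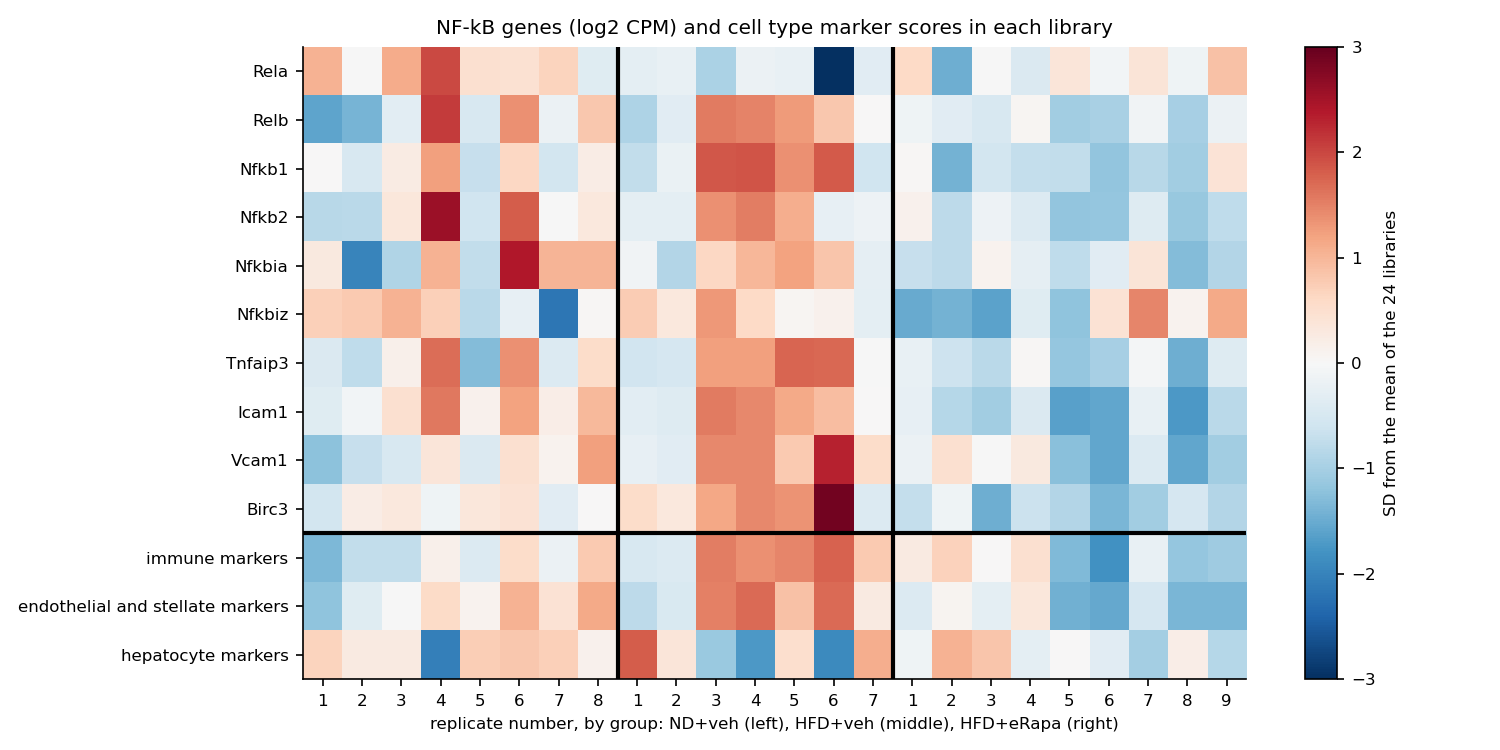
Level of the 10 transcripts (log2 CPM, upper rows) and scores of cell type markers (lower rows) in each library, as the number of SD from the mean of the 24 libraries (red above, blue below). The HFD+veh replicates 3 to 6 are red for Relb, Nfkb1, Nfkbia, Tnfaip3, Icam1, Vcam1 and Birc3 and for the immune and the endothelial and stellate markers, and replicate 6 is the darkest blue for Rela.

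In HFD+veh, marker transcripts of other liver cells were also highest in replicates 3 to 6. Hepatocyte markers dominated every library, with a summed level of 49175 to 163879 CPM for 8 genes such as Alb and Apoa1. The mean z-score of these 8 genes was -0.73, -1.13 and -1.24 in HFD+veh replicates 3, 4 and 6 but 0.34 in replicate 5. In ND+veh it was -1.35 in replicate 4 but 0.53 in replicate 6. The summed level of 10 Kupffer cell and macrophage markers ran from 43.9 to 1369 CPM in ND+veh, from 171 to 5434 CPM in HFD+veh and from 16.2 to 1114 CPM in HFD+eRapa. HFD+veh replicates 3 to 6 had 2496 to 5434 CPM of these markers and the other 3 libraries 171 to 935 CPM. In ND+veh these markers were highest in replicate 8, at 1369 CPM, with 417 in replicate 4 and 772 in replicate 6. There Vcam1 too was highest in replicate 8, but the 6 genes named above were highest in replicate 4 or 6. Lymphocyte markers (10 genes) summed to 0.795 to 36.0 CPM in ND+veh, 4.17 to 507 CPM in HFD+veh and 0.872 to 36.3 CPM in HFD+eRapa, and neutrophil markers (6 genes) to 0.114 to 6.68, 1.72 to 42.5 and 0.0563 to 11.6 CPM. Of the lymphocyte list Ptprc reached 461 CPM and no other gene exceeded 9.87 CPM, so that this sum is largely that of Ptprc. Sinusoidal endothelial markers (8 genes) summed to 75.0 to 449.8, 115 to 795 and 61.4 to 349.5 CPM, stellate cell markers (7 genes) to 33.6 to 250.5, 39.7 to 426 and 21.5 to 106 CPM, and cholangiocyte markers (5 genes) to 4.92 to 20.3, 13.0 to 362 and 11.8 to 59.1 CPM in the same group order. Of the last list Spp1, which macrophages make too, reached 348 CPM, whereas Krt7, Krt19 and Epcam did not exceed 0.529, 4.07 and 2.49 CPM. No marker of any list was at 0 in all libraries. Between HFD+eRapa and HFD+veh, edgeR called lower 8 of 10 macrophage, 8 of 8 endothelial, 7 of 7 stellate, 2 of 2 tested lymphocyte, 2 of 3 tested neutrophil and 1 of 3 tested cholangiocyte markers, against the 21.1% of all genes given above. Of 8 hepatocyte markers 2 were called higher there and 0 lower, against 10.9% of all genes called higher, but the median log2FC of the 8 was -0.29. Against ND+veh, where Icam1 and Nfkb2 were called lower, 5 of 7 stellate markers were also called lower in HFD+eRapa (median log2FC -1.63). The share of all genes called lower there was 6.54%, and no macrophage or endothelial marker was called by edgeR. With diet 3 of 10 macrophage, 2 of 2 lymphocyte, 2 of 3 neutrophil, 3 of 3 cholangiocyte and 1 of 8 endothelial markers tested were called higher. Of all genes 16.0% were called higher with diet. No stellate marker was called with diet, and of 8 hepatocyte markers 1 was called higher and 1 lower. The part of these markers in the members' values was not tested beyond the fits that follow. In bulk RNA, fewer cells of a type and less RNA per cell cannot be told apart.

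The members were refitted with a score of 15 immune markers, or of 15 endothelial and stellate markers, as a covariate. Calls between HFD+eRapa and HFD+veh fell over all genes from 32.0% to 6.58% with the immune and 5.66% with the endothelial and stellate score. Birc3 alone of the 7 members called there was called in these fits, at a log2FC of -0.79 (edgeR adjusted p = 0.0101) with the immune score and -0.72 (edgeR adjusted p = 0.0188) with the endothelial and stellate score. Icam1 had -0.75 (edgeR adjusted p = 0.113) and -0.62 (edgeR adjusted p = 0.198), Nfkb1 -0.30 (edgeR adjusted p = 0.318) and -0.25 (edgeR adjusted p = 0.456). Vcam1 went from -4.02 to -0.59 (edgeR adjusted p = 0.366) and -0.16 (edgeR adjusted p = 0.859), and Tnfaip3 from -1.81 to -0.36 (edgeR adjusted p = 0.685) and -0.31 (edgeR adjusted p = 0.765). Nfkb2 had -0.15 (edgeR adjusted p = 0.807) and -0.06 (edgeR adjusted p = 0.934), and Relb turned to 0.12 (edgeR adjusted p = 0.930) and 0.37 (edgeR adjusted p = 0.782). With the immune score none of the 3 diet calls was made by edgeR, beside 8.46% of all genes, and DESeq2 without a covariate called 3. Rela had -0.33 (edgeR adjusted p = 0.173), Birc3 0.35 (edgeR adjusted p = 0.259) and Vcam1 -0.26 (edgeR adjusted p = 0.705). In that fit 3 of the 10 genes had an unadjusted p under 0.05, Icam1 at -0.74 (edgeR adjusted p = 0.0819), Rela and Relb at -1.06 (edgeR adjusted p = 0.216), each with a negative estimate. With the endothelial and stellate score all 3 diet calls were made, beside 23.4% of all genes. Icam1 was called lower in HFD+eRapa than ND+veh with either score, at -1.48 (edgeR adjusted p = 2.89e-05) and -0.89 (edgeR adjusted p = 0.00670), whereas Vcam1 was called higher there with the endothelial and stellate score, at 1.10 (edgeR adjusted p = 0.0182). Nfkb2 and Birc3 were also called lower there with the immune score, at -0.69 (edgeR adjusted p = 0.0377) and -0.43 (edgeR adjusted p = 0.0394). Over all genes 19.1% and 25.7% were called in that contrast with the immune and with the endothelial and stellate score. The scores varied with group as well, the immune score having a median of 1.30 in HFD+veh, -0.28 in ND+veh and -0.22 in HFD+eRapa, so that such a fit cannot tell apart what the score and the group share.

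**Figure D4:**
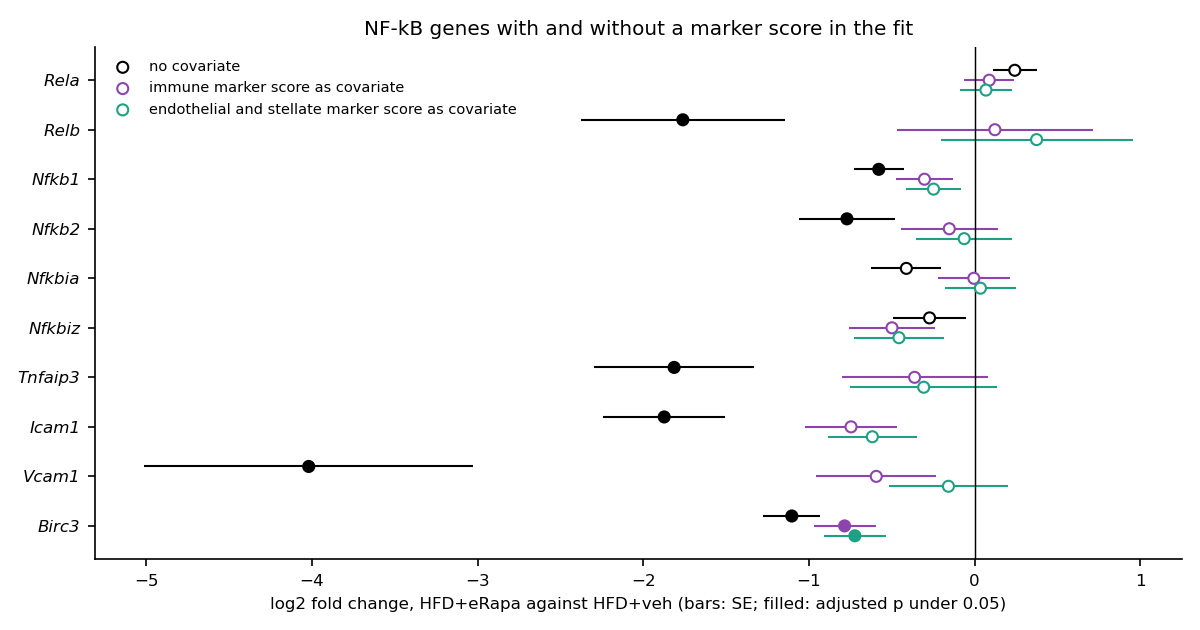
Log2 fold change of the 10 genes for HFD+eRapa against HFD+veh without a covariate (black), with the immune marker score (purple) and with the endothelial and stellate marker score (green) in the edgeR fit. Bars are SE, filled points have an adjusted p under 0.05. Birc3 is filled in all 3 fits, and Vcam1 moves from -4.02 to -0.59 and -0.16.

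Around the 10 genes, a list of 96 other pathway genes was described in the same fit, of which 80 passed the filter. Among the 16 untested genes were the ligand Tnf, with 283 counts over the 24 libraries, and the targets Il6 and Nos2, with 20 and 98 counts (these 3 were also named after their values were seen). Between HFD+eRapa and HFD+veh, 42 of the 80 were called (52.5%), 36 lower and 6 higher, beside the 32.0% of all genes, with a median log2FC of -0.38. With diet 31 were called (38.8%), 26 higher and 5 lower, beside 25.9%, and the median was 0.24. Between HFD+eRapa and ND+veh 7 were called (8.75%), beside 13.5%, with a median of -0.16. The diet count was 10 without HFD+veh replicate 6, beside 2106 of 13910 over all genes. It was 19 without HFD+veh replicate 3 (beside 2509 of 13914). It was 20 without either HFD+veh replicate 4 (beside 2683 of 13888) or ND+veh replicate 1 (beside 2617 of 13822). The count against ND+veh was 4 without ND+veh replicate 3, 6 or 7 or HFD+eRapa replicate 2. Over all genes these fits called 1626 of 13812, 1462 of 13809, 1682 of 13833 and 1702 of 13815. With the immune score as a covariate the counts were 4 with diet and 5 for HFD+eRapa against HFD+veh, beside 8.46% and 6.58% of all genes, and with the endothelial and stellate score 25 and 3, beside 23.4% and 5.66%.

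Upstream, the 3 ligands tested were all called lower in HFD+eRapa than HFD+veh. Of 13 receptors 8 were called lower and 2 higher. Of all genes 21.1% were called lower and 10.9% higher in that contrast. The larger falls were those of Tnfrsf11a (RANK), at a log2FC of -3.42 (edgeR adjusted p = 0.00559), and Tlr4, the receptor for bacterial lipopolysaccharide, at -3.30 (edgeR adjusted p = 0.0117). Both were among the receptors called higher with diet, at 3.07 (edgeR adjusted p = 0.0171) and 3.10 (edgeR adjusted p = 0.0263). Il1r1, the signalling receptor for interleukin 1, changed in the opposite sense, lower with diet at -0.75 (edgeR adjusted p = 0.0116) and higher with eRapa at 0.79 (edgeR adjusted p = 0.00499). Its level was 33.2 ± 10.1 CPM in ND+veh (SD, n = 8), 19.7 ± 3.64 CPM in HFD+veh (SD, n = 7) and, with eRapa, 34.1 ± 9.90 CPM (SD, n = 9). Ltbr, a receptor that feeds the non-canonical route of Relb and Nfkb2, was called higher with eRapa at 0.51 (edgeR adjusted p = 0.0445).

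Of 26 adaptors and kinases tested (15.4% called with diet and 34.6% between HFD+eRapa and HFD+veh, beside 25.9% and 32.0% of all genes), 2 were called higher and 2 lower with diet, where Irak2 fell by 0.47 (edgeR adjusted p = 0.00515) and Irak1 by 0.45 (edgeR adjusted p = 0.00567) on the log2 scale. Between HFD+eRapa and HFD+veh 7 were called lower and 2 higher. Against ND+veh 1 was called (3.85%, beside 13.5% of all genes), the IkB kinase-related Ikbke, at -0.80 (edgeR adjusted p = 0.00198). Rel, the only subunit on the list and named after its values were seen, rose with diet by 0.97 (edgeR adjusted p = 0.0265) and fell from HFD+veh to HFD+eRapa, at -1.30 (edgeR adjusted p = 0.00313).

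Of 14 other inhibitors and feedback genes, 5 were called lower and 2 higher in HFD+eRapa than HFD+veh. Irak3, which blocks the kinases below the interleukin 1 and Toll-like receptors, had the largest fall of the whole list in that contrast at -3.47 (edgeR adjusted p = 0.000211). Irak3 was lower in HFD+eRapa than ND+veh too, at -1.67 (edgeR adjusted p = 0.0435). Bcl3, a nuclear IkB, was called higher with eRapa at 0.80 (edgeR adjusted p = 0.0302) and lower with diet at -0.81 (edgeR adjusted p = 0.0384). Otulin, which removes linear ubiquitin chains, was called higher with eRapa at 0.36 (edgeR adjusted p = 0.0451). Tax1bp1, a partner of the Tnfaip3 protein, was higher in HFD+eRapa than ND+veh at 0.37 (edgeR adjusted p = 0.0421).

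Of 23 other targets, 12 were called lower in HFD+eRapa than HFD+veh (52.2%), beside 21.1% of all genes, and 11 were not called. With diet 11 were called higher (47.8%), beside 16.0% of all genes. These were led by the adhesion receptor Cd44 at 3.30 (edgeR adjusted p = 0.0147) and by Lcn2, an acute phase protein that binds siderophores, at 3.15 (edgeR adjusted p = 0.000649). The chemokine Ccl2 fell with eRapa at -3.13 (edgeR adjusted p = 0.00853). Lcn2 was called higher than ND+veh in HFD+eRapa also, at 2.79 (edgeR adjusted p = 0.000976), and HFD+eRapa differed from HFD+veh by -0.36 (edgeR adjusted p = 0.621). Its levels were 6.93 ± 6.96 CPM in ND+veh (SD, n = 8), 62.0 ± 33.9 CPM in HFD+veh (SD, n = 7) and, with eRapa, 48.4 ± 31.4 CPM (SD, n = 9). Lower in HFD+eRapa than ND+veh were Tnfaip2, at -1.18 (edgeR adjusted p = 0.000809), and the ligand Tnfsf12, at -0.87 (edgeR adjusted p = 0.00180). The 5 genes called between HFD+eRapa and HFD+veh with the immune score in the fit, named here after their values were seen, were Irak3, Ikbkb, Irf1 and Tnfaip2, all lower, and Mmp9, which was higher at 1.86 (edgeR adjusted p = 0.0334) but had -0.98 (edgeR adjusted p = 0.355) without a score. The 3 called with the endothelial and stellate score were Irak3, Ikbkb and Irf1.

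**Figure D5:**
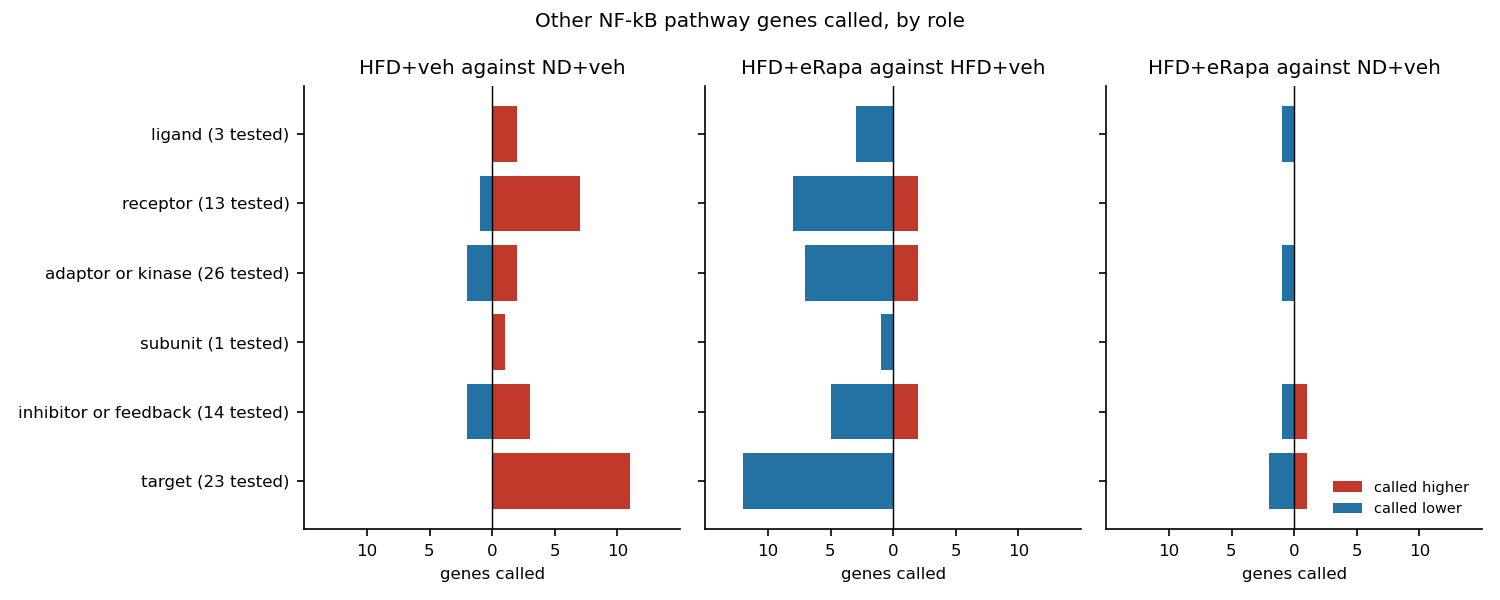
Number of other NF-kB pathway genes called higher (red, right) and lower (blue, left) by edgeR in each contrast, by role, with the number tested beside each role. In the middle panel 12 of 23 targets and 8 of 13 receptors are called lower, beside 21.1% of all genes tested. The right panel holds 7 calls in all.

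Likeness to 3 members was described over the 24 libraries after the group means of log2 CPM were removed. The genes most like Rela were Lmna (Pearson r 0.939), which encodes nuclear lamins, Wiz (0.920) and Scaf1 (0.913). Those most like Nfkbia were Akr1b7 (0.810), Klf11 (0.789) and Cln8 (0.777), and those most like Icam1 were Dmpk (0.927), Rasal3 (0.927) and Clip2 (0.922). These values share the libraries and their depth, and the high values of Icam1 are those of the libraries named above.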

How the data were processed

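RNA-seq libraries of hepatocytes from 24 mice were grouped by sample title, and the labels name a single batch for all of them. The authors aligned reads to mm10 with STAR (Gencode M23). The deposited counts are raw reads per gene, for which the authors used HTSeq 0.11.2, and the deposited FPKM values were made by the authors with Cufflinks. Gene positions are from Gencode M21 (GRCm38, the assembly of mm10), and promoters are RefSeq sequences on GRCm38.p6.

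Counts were tested with edgeR 4.0.16 in R 4.3.3 (filterByExpr, TMM, robust quasi-likelihood fit of all 24 libraries in 3 groups, no covariate, Benjamini-Hochberg adjustment over 13847 genes). Library totals of 17.7 to 25.9 M limit the precision of scarce transcripts such as Relb. Log2 CPM used a prior count of 2. Marker scores are mean z-scores of log2 CPM over 15 immune markers, 15 endothelial and stellate markers or 8 hepatocyte markers. Results were recomputed with DESeq2 1.42.0, limma 3.58.1 (voom with group weights, and log2(FPKM + 0.1) or log2(FPKM + 1) of genes with a mean FPKM of at least 0.1), other scaling and filters, fits of 2 groups, marker scores, a replicate block and the removal of each library. The fits were tested on simulated counts. Pairs of libraries of a group had a chi-square per degree of freedom of at least 12.3, so each counted as 1 replicate.

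The members and gene lists were chosen with earlier results of these data known. All 10 members were named. Of the pathway list, up to 4 called genes with the largest change per contrast and direction were named, and 3 like genes each for Rela, Nfkbia and Icam1.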

Additional observations from a re-analysis of the deposited data

Results flagged for a closer look

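Of 33 groups of values examined for a sample far from the others (10 genes and the library totals in 3 groups), 2 were flagged, where chance flags about 1 in 20 groups, or 1.65 here. The log2 CPM of Rela in HFD+veh replicate 6 was 4.40, while the other HFD+veh libraries lay between 5.15 and 5.41. This library also held the highest Vcam1 and Birc3 and the highest summed macrophage markers of its group, and the part of those in the Rela value was not tested. The total of HFD+veh replicate 3, 19.8 M counts, lay below the 21.3 to 22.0 M of the other libraries of its group.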

How the results depend on the processing

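Over 417 results, each the fold change of 1 member in 1 contrast under 1 alternative other than leaving out a single library, 340 had the direction and the call of the reported value, 48 lost the call, 7 gained it and 22 turned in direction. DESeq2 and DESeq2 size factors changed none of 30. Relb could not be fitted with at least 10 counts in every library. Relb had as few as 8 counts in a library, which limits its precision. The cause of the changes below was not tested.

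Members called with diet were 0 with limma on log2(FPKM + 0.1) or log2(FPKM + 1) (3 at an unadjusted p under 0.05 in both, and 3 called by edgeR, 3 by DESeq2 and 2 by voom on counts), 0 with the immune score and 1 without ND+veh replicate 4 and HFD+veh replicate 6 together. For HFD+eRapa against HFD+veh they were 1 with the immune and 1 with the endothelial and stellate score, and against ND+veh 1 with no filter, 1 with only libraries numbered 1 to 7, 1 on either FPKM scale and 5 with the hepatocyte score. The subsets of libraries 1 to 7 and without both libraries were chosen after the data were seen. Of all 13847 genes the main fit called 3584, 4432 and 1865 (diet, HFD+eRapa against HFD+veh and against ND+veh). With the immune and with the endothelial and stellate score, 911 and 784 of 13847 were called against HFD+veh. Against ND+veh, 1391 of 30483 genes were called with no filter and 1392 of 13704 with libraries 1 to 7. There 1367 and 1363 of 17110 were called on the FPKM scales and 2544 of 13847 with the hepatocyte score. Pathway genes called with diet were 12 of 80 with voom, 19 of 95 with no filter and 18 of 59 with at least 10 counts in every library. They were 18 of 79 in the fit of 2 groups, 12 and 19 of 85 on the FPKM scales, 4 of 80 with the immune score and 15 of 80 without both libraries. Over all genes the diet calls in these 8 fits were 1798 of 13847, 2933 of 30483, 2657 of 10754, 2333 of 13423, 1998 and 2604 of 17110, 1171 of 13847 and 2300 of 13791. For HFD+eRapa against HFD+veh 24 of 59 pathway genes were called with at least 10 counts, beside 2809 of 10754 over all genes. With the immune and the endothelial and stellate score 5 and 3 of 80 were called. Against ND+veh 4 of 95 were called with no filter, 4 of 59 with at least 10 counts and 11 of 73 in the fit of 2 groups. There 4 of 85 were called on log2(FPKM + 1), 22 of 80 with the endothelial and stellate score and 14 of 80 with the hepatocyte score. Over all genes the calls against ND+veh were 1509 of 10754 with at least 10 counts and 2344 of 12935 in the fit of 2 groups. They were 3554 of 13847 with the endothelial and stellate score.

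Leaving out 1 library gave 1 to 3, 5 to 7 and 1 to 3 members called and 10 to 38, 32 to 44 and 4 to 9 pathway genes (diet, HFD+eRapa against HFD+veh and against ND+veh). Over all genes it gave 2106 to 4479, 3269 to 5061 and 1462 to 2232 calls in the same order. Of uncalled diet changes, Relb ranged from -0.056 to 0.88, Nfkb2 from -0.24 to 0.19, Nfkbia from -0.17 to 0.13 and Icam1 from -0.053 to 0.36.

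Directions turned for Relb with diet (-1.06 immune, -0.34 endothelial and stellate score), against HFD+veh (0.12 and 0.37) and against ND+veh (0.032, endothelial and stellate score), and for Nfkb2 with diet (0.030 voom, 0.028 and 0.0025 on the FPKM scales, 0.27 without both libraries). They turned for Nfkbia with diet (0.035 voom, 0.045 and 0.041 on the FPKM scales) and against HFD+veh (0.035, endothelial and stellate score), and with diet for Tnfaip3 (-0.51 immune score), Icam1 (-0.74 immune, -0.28 endothelial and stellate, -0.023 hepatocyte score) and Vcam1 (-0.26 immune score). Vcam1 against ND+veh was 1.10 with the endothelial and stellate score (edgeR adjusted p = 0.0182).

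Replicate numbers are shared between groups, but belong to different animals. After removal of group means, same-numbered libraries correlated over genes at a mean of 0.32, -0.24 and -0.20 in the 3 contrasts. Pairs over 0.1 were 5 of 7, 2 of 7 and 2 of 8. The labels do not say whether same-numbered libraries were handled together, and the source of these correlations was not tested. A replicate block over libraries 1 to 7 of each group gave 3, 3 and 0 members called (2 of 10 at an unadjusted p under 0.05 in the last, where edgeR and DESeq2 without the block called 2) and 28, 15 and 4 of 79 pathway genes. Of all 13704 genes tested with the block, 3147, 1933 and 1172 were called. With the block the diet change was 0.0024 for Nfkb2 and 0.059 for Nfkbia, and Vcam1 against ND+veh was 0.51.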
